A study of Mus musculus with 8 samples.

Results

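Atp6v1c2 encodes isoform 2 of the C subunit of the vacuolar proton pump (V-ATPase), and its 9 companions here are genes of other subunits or isoforms of that pump: Atp6v1c1, Atp6v1a, Atp6v1b1, Atp6v1b2, Atp6v1d, Atp6v1h, Atp6v0a1, Atp6v0a2 and Atp6v0a4. All 10 genes were found by their symbol in the platform's annotation. They are 10 of 18194 genes and hold 25 of 45101 probe sets. The brightest probe set of a gene, by its mean over the 8 arrays, leads, and the others check it. The set was chosen by the values of Atp6v1c2, whose knockout against wildtype difference averaged over both cell populations was among the few called in these data. Its genotype values are therefore described below without a test.

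The cells were mouse mammary epithelial cells sorted by FACS as LIN-CD24+CD29hi or LIN-CD24hiCD29lo cells (CD29hi and CD29lo below), where CD29 is integrin beta 1. They came from germline C/EBPb-/- glands (KO) and from wildtype glands (WT), in 2 paired sets with 10 mice per group, so each sample was pooled from several animals. The 4 groups, KO CD29hi, WT CD29hi, KO CD29lo and WT CD29lo, hold 2 arrays each, and the study asked which pathways the transcription factor C/EBPb regulates in these stem and progenitor subpopulations. The knockout was present in every cell of the animal, and neither the strain and age of the mice nor the deleted stretch of Cebpb is stated in the labels. The arrays are labelled as biological replicates, and the mice behind each one are not listed.

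V-ATPases pump protons into lysosomes, endosomes and secretory vesicles, and in some specialised cells out across the plasma membrane. A peripheral V1 sector (subunits A to H) hydrolyses ATP, and a V0 sector in the membrane (subunits a, c, d and e with accessory proteins) carries the protons. Several subunits come in isoforms: C1, B2, a1 and a2 are made in many tissues, whereas C2, B1 and a4 are known from acid-secreting epithelia such as the intercalated cells of the kidney.

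Values are log2 intensities, so a difference of 1 is a doubling, and values of different genes are not set against each other because probe sets differ in brightness. A background was taken for each array from control probe sets for bacterial genes. It lay between 3.83 and 4.41, and between 64.7% and 71.2% of probe sets were above it. Array medians ran from 5.45 to 5.67. Cebpb stood at 8.60 and 9.38 in KO CD29hi against 11.95 and 12.25 in WT CD29hi, and at 9.23 and 8.89 in KO CD29lo against 11.83 and 12.18 in WT CD29lo. Where the deletion lies relative to that probe set is not given. The gates matched their markers: the mean of 8 basal markers such as Krt5 was 11.86 to 12.35 in CD29hi and 6.67 to 7.41 in CD29lo arrays, and that of 9 luminal markers such as Krt8 was 8.07 to 8.97 in CD29hi and 10.80 to 11.07 in CD29lo arrays. Fibroblast markers, 8 of 8 with a value, averaged 4.59 to 6.78 in CD29hi arrays and 7.62 to 11.44 in CD29lo arrays, where the arrays numbered 2 were highest (10.74 in KO, 11.44 in WT). Of 10 macrophage and blood markers, 3 (Itgam, Cd3e and Hba-a1) were at or below the background on every array.

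Atp6v1c2 was far lower in the knockout in both populations. The C subunit sits between the 2 sectors of the pump and holds them together, and it is released when the pump comes apart. Its only probe set, 1430306_a_at, read 4.12 and 3.87 in KO CD29hi against 7.12 and 7.18 in WT CD29hi. In CD29lo cells it read 4.66 and 2.66 in KO against 7.93 and 7.99 in WT. Each of the 4 KO arrays was below each of the 4 WT arrays, as in 3.24% of all 14598 tested genes in one direction or the other (39.5% within CD29hi and 34.3% within CD29lo), and in each KO group 1 of 2 arrays was above its background. The mean log2 difference was -3.15 for CD29hi cells and -4.30 for CD29lo cells, and their average was -3.73, which is a 13.2-fold lower signal. With values under the background raised to it, the differences were -3.12, -3.55 and -3.34, so the size of the drop in CD29lo is bounded by the background. The CD29lo difference was -5.30 without KO CD29lo replicate 1 and -3.30 without KO CD29lo replicate 2, because those arrays read 4.66 and 2.66. In bulk RNA, fewer cells that express the gene and less RNA per cell cannot be told apart.

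**Figure D1:**
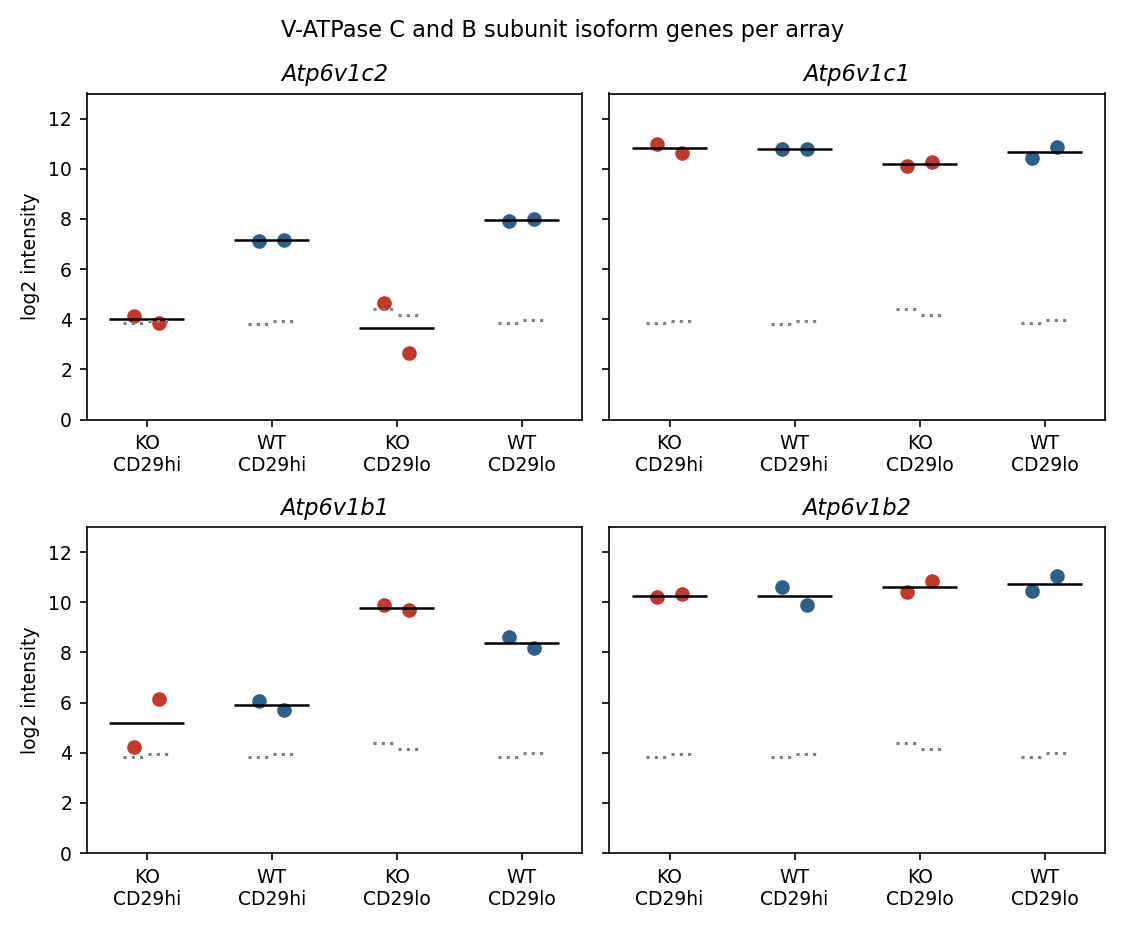
Log2 intensity (y axis) of the C subunit genes Atp6v1c2 and Atp6v1c1 and the B subunit genes Atp6v1b1 and Atp6v1b2 in the 4 groups (x axis), with a point per array (KO red, WT blue), a line at the group mean and a dotted line at each array's background. Atp6v1c2 lies between 2.66 and 4.66 in KO and between 7.12 and 7.99 in WT arrays, Atp6v1b1 is highest in CD29lo cells, and Atp6v1c1 and Atp6v1b2 stay between 9.88 and 11.05.

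The sequence around an annotated start of transcription is shown for Atp6v1c2, whose signal was far lower in the knockout, for Atp6v1b1, which differed between the gates, and for Atp6v1a, for which no difference passed. RefSeq (GRCm38.p6) gives 250 bases before and 50 after the start for 6 of the 10 genes. The Atp6v1c2 window is chr12:17324681-17324980 on the minus strand, that of Atp6v1b1 chr6:83742767-83743066 on the plus strand and that of Atp6v1a chr16:44139210-44139509 on the minus strand. For Atp6v1c2 and Atp6v1a the start of the window lies inside the bounds that RefSeq gives the gene, so it is not the outermost one, and which start these cells use was not measured. Capitals mark the C/EBP half-site ATTGC, the octamer ATGCAAAT and TCACGTGA, the core of the CLEAR element of lysosomal genes, on either strand.
Atp6v1c2: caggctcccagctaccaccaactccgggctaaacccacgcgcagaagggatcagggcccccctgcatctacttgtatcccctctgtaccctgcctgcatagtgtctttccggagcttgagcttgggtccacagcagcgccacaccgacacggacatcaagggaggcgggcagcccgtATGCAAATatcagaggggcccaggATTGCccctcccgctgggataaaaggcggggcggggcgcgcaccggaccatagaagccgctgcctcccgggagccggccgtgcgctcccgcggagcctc
Atp6v1b1: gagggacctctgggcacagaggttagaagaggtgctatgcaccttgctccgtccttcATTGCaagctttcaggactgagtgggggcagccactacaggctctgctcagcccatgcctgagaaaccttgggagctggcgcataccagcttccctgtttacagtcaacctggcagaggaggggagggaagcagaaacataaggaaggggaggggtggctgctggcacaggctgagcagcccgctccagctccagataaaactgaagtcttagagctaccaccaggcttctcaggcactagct
Atp6v1a: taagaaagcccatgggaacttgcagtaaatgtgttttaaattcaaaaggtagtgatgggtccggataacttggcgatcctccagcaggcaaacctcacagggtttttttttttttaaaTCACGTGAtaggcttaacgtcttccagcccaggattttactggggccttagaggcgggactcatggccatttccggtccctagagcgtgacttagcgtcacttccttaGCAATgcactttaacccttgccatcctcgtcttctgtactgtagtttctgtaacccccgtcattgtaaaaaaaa
A half-site was found in these 3 windows and in none of the other 3 (Atp6v1d, Atp6v0a1 and Atp6v0a4). It occurs in 26.4% of all 32851 such windows. In Atp6v1c2 it covers bases 202 to 206 of the window. The full C/EBP site was searched as TTGCNNAA, which shares TTGC with the half-site, and was in 0 of the 6 windows against 10.8% of all windows. The octamer was in Atp6v1c2 only (1.74% of all windows) and the CLEAR core in Atp6v1a only (0.974%). These are matches of letters, and no binding was measured.

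Between the gates, no difference of Atp6v1c2 passed. In wildtype cells 7.12 and 7.18 in CD29hi stood against 7.93 and 7.99 in CD29lo, a log2 fold change of -0.81 ± 0.604 (SE; limma adjusted p = 0.493; 95% interval -2.19 to 0.57). The 2 gates did not overlap, as was the case for 52.1% of all tested genes in this comparison. The SE rests on a spread pooled over all 4 groups. The SD was 0.042 in each WT group, 0.177 in KO CD29hi and 1.41 in KO CD29lo. The wildtype difference did not pass in any alternative run. In knockout cells the difference was 0.34 (limma adjusted p = 0.773), with 1 of 2 arrays above the background in each gate. With values raised to the background it was -0.38. Leaving out KO CD29lo replicate 1 gave 1.33, while leaving out its replicate 2 gave -0.67. Over both genotypes it was -0.24 (limma adjusted p = 0.739), and 0.26 without KO CD29lo replicate 1. The knockout effects in CD29hi and CD29lo differed by 1.15 ± 0.854 (limma adjusted p = 0.966; 95% interval -0.81 to 3.10), and by 2.15 without KO CD29lo replicate 1 and 0.14 without KO CD29lo replicate 2. The descending order of group means was thus WT CD29lo (7.96 ± 0.042), WT CD29hi (7.15 ± 0.042), KO CD29hi (3.995 ± 0.177) and KO CD29lo (3.66 ± 1.41; SD, n = 2 each), and the last pair overlapped.

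The other C subunit gene, Atp6v1c1, the ubiquitous isoform, was well above the background on every array and did not pass in a genotype comparison. It read 11.00 and 10.64 in KO CD29hi against 10.80 and 10.77 in WT CD29hi, a difference of 0.03 ± 0.196 (95% interval -0.41 to 0.48; limma adjusted p = 0.987). In CD29lo cells it read 10.13 and 10.25 in KO against 10.43 and 10.87 in WT, a difference of -0.46 ± 0.196 (95% interval -0.91 to -0.01; limma adjusted p = 0.74). The KO arrays were the lower ones there without overlap, as for 34.3% of all tested genes, and the difference did not pass over all genes. Its 3 probe sets, all above the background on every array, gave -0.17 to 0.04 in CD29hi and -0.51 to -0.34 in CD29lo. Between the gates Atp6v1c1 was higher in CD29hi by 0.38 ± 0.138, which missed the threshold (limma adjusted p = 0.0833) and passed without WT CD29lo replicate 2 (limma adjusted p = 0.0478).

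The B subunit carries part of the ATP binding site of V1. Its epithelial isoform gene, Atp6v1b1, was the member that separated the gates. It read 4.24 and 6.15 in KO CD29hi and 6.08 and 5.71 in WT CD29hi, against 9.88 and 9.68 in KO CD29lo and 8.62 and 8.16 in WT CD29lo. Every CD29lo array was above every CD29hi array, a split found for 25.3% of all tested genes over both genotypes, 57.1% in KO and 52.1% in WT. Averaged over both genotypes Atp6v1b1 was 11.6-fold lower in CD29hi (log2 fold change -3.54 ± 0.402, limma adjusted p = 0.000572), and the adjusted p stayed at or under 0.00428 in all alternatives run. The difference was -4.58 ± 0.569 in KO cells (limma adjusted p = 0.00185) and -2.50 ± 0.569 in WT cells (limma adjusted p = 0.0321). The call in WT cells was lost when any 1 WT array was left out, which leaves 1 array in its group. The difference was then -2.73 to -2.27. The call was also lost without a trend (limma adjusted p = 0.0718) and with values raised to 4 (limma adjusted p = 0.0523). It held with only the WT arrays compared (limma adjusted p = 0.0108). Fibroblast markers were also lower in CD29hi, 8 of 8 passing with a median of -4.12, and 5 to 8 with 1 array left out. In KO cells alone 3 of 8 passed (0 to 7 with 1 array left out), with a median of -3.32. KO CD29lo replicate 1 had the lowest fibroblast mean of the CD29lo arrays (7.62) and the highest Atp6v1b1 value (9.88), and the part of such cells in the difference was not tested.

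By genotype, the Atp6v1b1 differences had opposite signs in the gates, and neither passed. In CD29lo both KO arrays were above both WT arrays, by 1.39 ± 0.569 (limma adjusted p = 0.713; 95% interval 0.09 to 2.69). A split in either direction was found there for 34.3% of all tested genes. In CD29hi the arrays overlapped, with a difference of -0.70 ± 0.569 (limma adjusted p = 0.859), which was 0.26 without KO CD29hi replicate 1. The 2 effects differed by -2.09 ± 0.805 (limma adjusted p = 0.961; 95% interval -3.93 to -0.25). The gene has 1 probe set, so no second measurement was at hand.

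Atp6v1b2, the ubiquitous B isoform, read 10.20 and 10.31 in KO CD29hi against 10.59 and 9.88 in WT CD29hi. In CD29lo cells it read 10.39 and 10.84 in KO against 10.43 and 11.05 in WT. KO and WT arrays overlapped in both gates, with differences of 0.02 (95% interval -0.65 to 0.69) and -0.12 (95% interval -0.80 to 0.55). All 4 of its probe sets were lower in CD29hi than in CD29lo, by -0.61 to -0.35, and the leading one did not pass (-0.43 ± 0.207, limma adjusted p = 0.175).

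For the remaining V1 genes no comparison passed. Atp6v1a, the catalytic A subunit, read 11.34 and 11.16 in KO CD29hi against 11.39 and 11.33 in WT CD29hi, and 11.09 and 11.14 in KO CD29lo against 11.12 and 11.40 in WT CD29lo. Its averaged genotype difference was -0.13 ± 0.0969 (95% interval -0.35 to 0.09; limma adjusted p = 0.753), so a change of the size seen for Atp6v1c2 lies far outside the interval. Atp6v1d, part of the rotating central stalk, read 11.19 and 11.55 in KO CD29hi against 11.41 and 11.48 in WT CD29hi, and 11.69 and 11.65 in KO CD29lo against 11.48 and 11.61 in WT CD29lo. Atp6v1d differed by 0.02 ± 0.0975 (95% interval -0.20 to 0.25). Atp6v1h, which silences ATP hydrolysis by V1 that has left the membrane, read 9.98 and 9.93 in KO CD29hi against 10.26 and 9.98 in WT CD29hi, and 9.90 and 10.08 in KO CD29lo against 9.86 and 10.63 in WT CD29lo. Its averaged difference was -0.21 ± 0.184 (95% interval -0.63 to 0.21). For all 3 genes, whichever gate was read, no genotype difference passed.

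The a subunit of V0 lines the proton path and steers the pump to a given membrane, and 3 of its genes are members. Atp6v0a1 read 7.10 and 7.58 in KO CD29hi against 7.47 and 7.75 in WT CD29hi, and 7.33 and 7.95 in KO CD29lo against 7.25 and 8.46 in WT CD29lo. It differed by -0.24 ± 0.319 between genotypes (95% interval -0.97 to 0.49). Another of its 4 probe sets, 1460650_at, stood at 8.79 in KO CD29lo replicate 2 and between 4.47 and 5.83 in the other 7 arrays, a jump that the leading probe set did not show. Atp6v0a2 read 9.39 and 8.82 in KO CD29hi against 9.31 and 8.45 in WT CD29hi, and 8.86 and 9.01 in KO CD29lo against 8.47 and 9.11 in WT CD29lo. Its difference was 0.19 ± 0.26 (95% interval -0.41 to 0.78), and its 3 probe sets gave -0.15 to 0.18. Atp6v0a4, the isoform of acid-secreting kidney cells, lay below the background on all 8 arrays, between 0.76 and 2.59. It was the 1 member under the filter on dim genes and was not tested, and no fold is given for it.

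**Figure D2:**
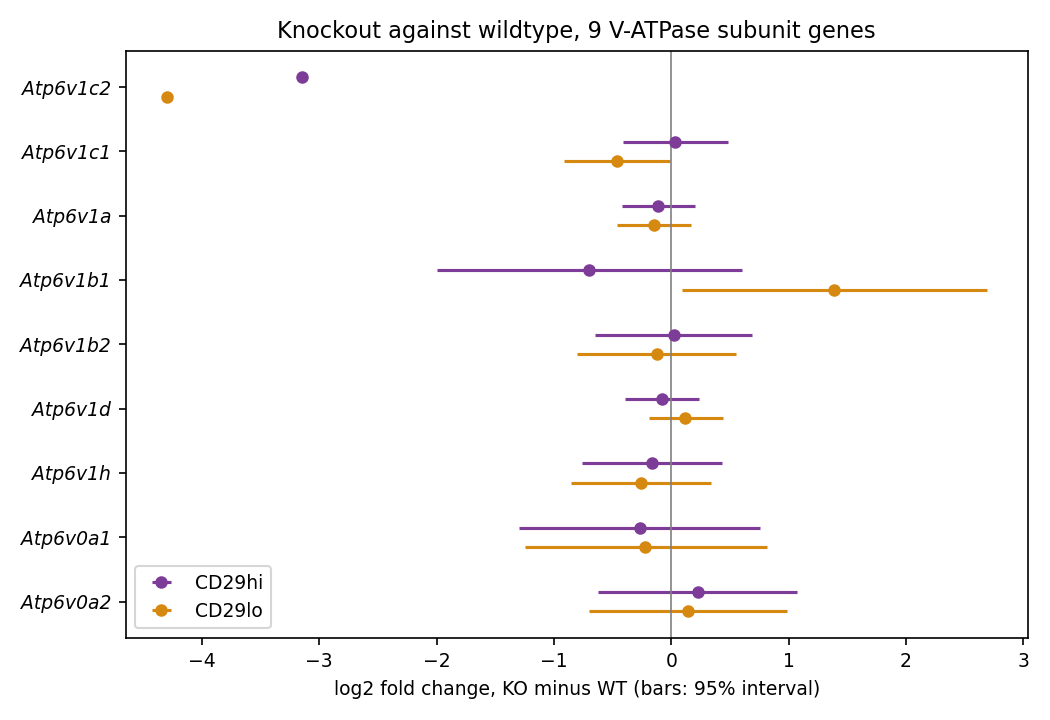
Log2 fold change of KO against WT (x axis) for the 9 V-ATPase subunit genes above the filter (y axis), in CD29hi (purple) and CD29lo (orange), with 95% intervals from the limma fit. Atp6v1c2, chosen for this difference, is drawn without an interval at -3.15 and -4.30, and the others lie between -0.70 and 1.39.

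Apart from Atp6v1c2, 0 of the 8 tested members passed in any genotype comparison (limma). The share of all 14598 tested genes that passed was 0.0685% averaged over the gates, 0.0137% in CD29hi, 0.0137% in CD29lo and 0% for the difference between the genotype effects, so a count of 0 is what such a background leaves room for. At an unadjusted p under 0.05 the counts among these 8 were 0, 0, 2 and 1, where 9.27%, 7.84%, 6.68% and 4.95% of all genes were that low. The 2 in CD29lo were Atp6v1c1 and Atp6v1b1. The median difference of these 8 averaged over the gates was -0.09, against -0.04 over all tested genes. Over the 8 arrays the 7 tested members other than Atp6v1c2 and Atp6v1b1 spanned 0.31 to 1.36 log2 units each.

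Between CD29hi and CD29lo, 1 of the 9 tested members (Atp6v1b1) passed over both genotypes and in each, while 22.9% of all tested genes passed over both genotypes, 14.1% in KO and 8.19% in WT. Of all tested genes 10.8%, 6.66% and 4.23% passed as lower in CD29hi, the direction of Atp6v1b1. At an unadjusted p under 0.05 there were 2, 2 and 1 of the 9 members, where 35.6%, 29.1% and 22% of all tested genes were that low. The median of the 9 was -0.20 over both genotypes, against 0.01 over all tested genes. A count of 1 in 9 is near these shares, so the members as a set did not stand out, and Atp6v1b1 alone had a large difference.

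**Figure D3:**
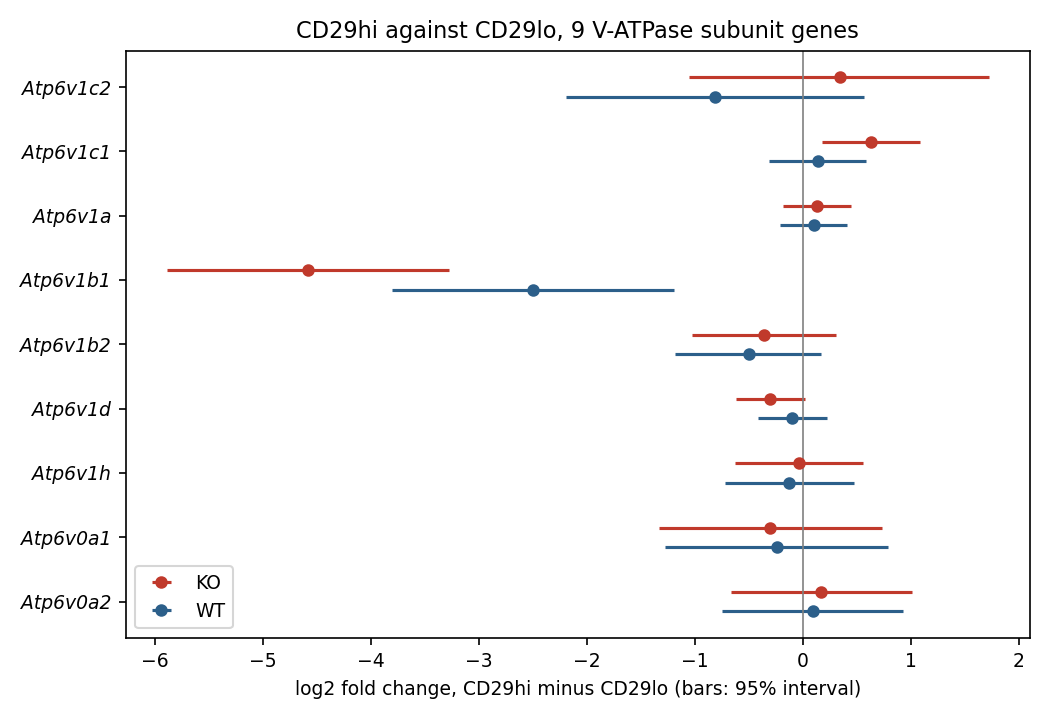
Log2 fold change of CD29hi against CD29lo (x axis) for the same 9 genes (y axis) in KO (red) and WT (blue) cells, with 95% intervals from the limma fit. Atp6v1b1 stands at -4.58 in KO and -2.50 in WT cells, and the other genes lie between -0.81 and 0.63.

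Of 15 further subunit and accessory genes of the pump, 13 had a value, and 0 passed in a genotype comparison (limma). At an unadjusted p under 0.05 there were 1, 0 and 3 in the averaged, CD29hi and CD29lo comparisons. Of all tested genes 9.27%, 7.84% and 6.68% were that low. Among the 13, the smallest p in the averaged comparison belonged to Atp6v1e1, a peripheral stalk subunit (-0.38 ± 0.12, limma adjusted p = 0.366). Its leading probe set read 10.02 and 10.31 in KO CD29hi against 10.41 and 10.60 in WT CD29hi, and 10.46 and 10.58 in KO CD29lo against 10.85 and 11.02 in WT CD29lo. In both gates the KO arrays were the lower ones. Of all tested genes, 39.5% split without overlap in CD29hi and 34.3% in CD29lo, in either direction. Of its 4 probe sets the dimmest, 1457049_at, gave 0.35 averaged over the gates, and the others gave -0.39 to -0.32. Between the gates all 4 were lower in CD29hi, by -0.51 to -0.32.

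Between the gates 2 of the 13 were lower in CD29hi when both genotypes were averaged, where 10.8% of all tested genes were lower. Neither call was firm. Atp6v1e1 was lower by -0.39 (limma adjusted p = 0.0478), and lost its call whichever of the 8 arrays was left out, with adjusted p from 0.0537 without KO CD29hi replicate 2 to 0.164 without KO CD29hi replicate 1. The leading probe set of Atp6v0d2, the d isoform known from osteoclasts and macrophages, was below the background in KO CD29hi (2.84 and 3.17) and WT CD29hi (2.71 and 3.63). It read 5.04 and 6.19 in KO CD29lo and 3.75 and 4.09 in WT CD29lo, where 1 of 2 arrays was above the background. By this probe set Atp6v0d2 was at least 3.29-fold lower in CD29hi in KO cells (limma adjusted p = 0.0192), and the log2 difference over both genotypes was -1.68 (limma adjusted p = 0.0189). The second Atp6v0d2 probe set, above the background on 2 arrays, was lower in CD29hi in KO cells but higher there in WT cells. It read 2.29 and 2.58 in KO CD29hi and 4.38 and 3.81 in WT CD29hi, against 3.39 and 4.72 in KO CD29lo and 3.12 and 2.77 in WT CD29lo, so its wildtype arrays were the higher ones in CD29hi, 1 of 2 above the background. Its difference over both genotypes was -0.24. With the mean of both probe sets the call over both genotypes was lost (-0.96, adjusted p = 0.107), as it was with values raised to 4 (-0.83, adjusted p = 0.056). In these 2 settings the call in KO cells held (-2.12 and -1.61, limma adjusted p = 0.0336 and 0.0281). The KO call was lost without KO CD29hi replicate 1 (0.116) or 2 (0.0691) or KO CD29lo replicate 2 (0.0977). Over both genotypes, leaving out replicate 1 of KO CD29hi (0.0687) or of WT CD29hi (0.0628), or replicate 2 of KO CD29lo (0.0571) or of WT CD29lo (0.0565), ended the call. Macrophage and blood markers had no common direction, with 1 of the 6 tested higher in CD29hi and 1 lower. Cd68 read 8.33 and 8.67 in KO CD29hi and 7.82 and 8.37 in WT CD29hi, against 7.62 and 7.39 in KO CD29lo and 6.50 and 5.91 in WT CD29lo. Cd14, which is also on the luminal list, read 3.56 and 4.61 in KO CD29hi and 5.08 and 6.64 in WT CD29hi, against 8.34 and 7.66 in KO CD29lo and 7.65 and 8.28 in WT CD29lo. The mean of all 10 was 3.44 to 3.98 in CD29hi and 4.40 to 4.54 in CD29lo arrays, and the part of such cells in Atp6v0d2 was not tested.

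Genes that assemble or regulate the pump gave 0 calls among the 11 of 12 with a value, between genotypes and between gates (limma). Their averaged genotype median was -0.15 against -0.04 over all tested genes. There 0 had an unadjusted p under 0.05, against 9.27% of all tested genes. Between the gates 2 had one, with 35.6% of all tested genes that low, and Wdr7, a subunit of the complex that reassembles the pump, came nearest (0.86 ± 0.272, limma adjusted p = 0.0545). With 1 array left out the calls in this list were 0 to 2 over both genotypes and 0 to 1 in KO cells, each higher in CD29hi, and 0 to 1 over both genotypes under the other settings.

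Lysosomal genes, whose products work in the acid that the pump makes, gave 0 calls among the 26 of 30 with a value in the averaged genotype comparison (limma), with 6 at an unadjusted p under 0.05 (9.27% of all tested genes). The median of the 26 was -0.20, against -0.04 over all tested genes, and a shift of the list was not tested. Clcn7, the chloride transporter of the lysosome, stood at -0.90 ± 0.23 (limma adjusted p = 0.297) and read 7.65 and 7.21 in KO CD29hi against 7.91 and 7.62 in WT CD29hi, and 6.52 and 6.52 in KO CD29lo against 7.78 and 8.20 in WT CD29lo. Lamp1, a membrane protein of lysosomes, stood at -0.24 (limma adjusted p = 0.346). Between the gates 2 of the 26 were higher and 3 lower in CD29hi, where 12.2% of all tested genes were higher and 10.8% lower. With 1 array left out, 1 to 3 of the 26 were higher and 2 to 5 lower. The protease gene Ctsd was lower by -0.79 (limma adjusted p = 0.000732), the lipase gene Lipa by -1.30 (limma adjusted p = 0.00325), and the glucuronidase gene Gusb was higher by 1.24 (limma adjusted p = 0.00621). These 3 calls held in every alternative run.

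At the lysosomal surface the pump is part of the machinery that tells mTORC1, a growth-controlling kinase complex, about amino acids. Of 13 genes of this machinery with a value, 0 passed between genotypes (limma), with 5 at an unadjusted p under 0.05 in the averaged comparison (9.27% of all tested genes) and a median of -0.14. Rptor, the scaffold of mTORC1, stood at -0.76 ± 0.272 (limma adjusted p = 0.443) and Slc38a9, an amino acid sensor, at 0.71 ± 0.248 (limma adjusted p = 0.43). Between the gates 4 of 13 were higher in CD29hi, and 1 to 5 with 1 array left out, where 12.2% of all tested genes were higher. The GTPase gene Rragd was higher by 0.78 ± 0.139 (limma adjusted p = 0.00538), a call that was lost with the mean of its probe sets (0.48, adjusted p = 0.107).

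Acid secretion and pH genes gave 0 calls between genotypes among the 16 of 24 that were tested (limma). In the averaged comparison 0 had an unadjusted p under 0.05, against 9.27% of all tested genes. Between the gates 4 were higher and 2 lower in CD29hi, and 2 to 4 and 1 to 3 with 1 array left out, where 12.2% of all tested genes were higher and 10.8% lower. Car9, a carbonic anhydrase on the cell surface, read 8.89 and 9.66 in KO CD29hi and 10.10 and 10.68 in WT CD29hi, against 7.11 and 7.40 in KO CD29lo and 6.45 and 5.68 in WT CD29lo. It was higher in CD29hi by 3.17 ± 0.28 (limma adjusted p = 0.000178), opposite to Atp6v1b1. Other carbonic anhydrase genes went both ways. Car2 was lower in CD29hi by -0.92 ± 0.203 (limma adjusted p = 0.0136), the direction of Atp6v1b1, and its gates did not overlap. With 1 array left out the Car2 difference was -1.04 to -0.80. Car12 (2.27, limma adjusted p = 0.0312) and Car13 (0.94, limma adjusted p = 0.0137) were higher, and their gates overlapped. Clcn3, a chloride exchanger of endosomes, was lower by -1.10 ± 0.178 (limma adjusted p = 0.00324). Foxi1, a transcription factor that switches on V-ATPase genes in kidney intercalated cells, did not pass. It read 4.38 and 4.66 in KO CD29hi against 5.33 and 6.73 in KO CD29lo (-1.51 ± 0.507, limma adjusted p = 0.0862). In WT cells it read 4.89 and 5.03 in CD29hi against 5.47 and 5.45 in CD29lo (-0.50 ± 0.507, limma adjusted p = 0.629).

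The genes whose profile was most like that of Atp6v1c2 over the 8 arrays were Tsc1 (Pearson r = 0.975), Taf6 (0.968), Pigo (0.965), Zfyve26 (0.961), Ift140 (0.958) and Nrd1 (0.950). Each read lower in every KO array than in every WT array, a split found in 3.24% of the 14598 tested genes in either direction. They were picked for their likeness to Atp6v1c2, which splits that way itself, so their split is no separate result. Their differences were small beside that of Atp6v1c2: Tsc1, an inhibitor of mTORC1, read 8.77 and 8.87 in KO CD29hi and 8.86 and 8.64 in KO CD29lo, against 9.39 and 9.22 in WT CD29hi and 9.45 and 9.36 in WT CD29lo. Cebpb ranked 8 in this order (0.948). The ranking rests on the leading probe sets: with the mean of all probe sets the correlation of Tsc1 turned to -0.115 and that of Nrd1 was 0.462. With the mean of each gate removed, the nearest were Slpi (0.996), Topbp1 (0.990), Ptpru (0.983), Pcdhb19 (0.981), Golim4 (0.980) and Dsn1 (0.978), where the mean of all probe sets gave 0.103 for Topbp1 and 0.739 for Ptpru.

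Slpi, a secreted protease inhibitor, read 8.90 and 8.65 in KO CD29hi against 12.00 and 11.81 in WT CD29hi, and 4.99 and 3.21 in KO CD29lo against 8.99 and 8.60 in WT CD29lo. Golim4, a Golgi membrane protein, read 10.84 and 10.90 in KO CD29hi against 11.56 and 11.62 in WT CD29hi, and 8.92 and 8.48 in KO CD29lo against 10.22 and 10.08 in WT CD29lo. In both genes KO CD29lo replicate 2 was the lowest array, as it was for Atp6v1c2. Both were picked for their likeness to Atp6v1c2 within gates, so the shared lowest array is no separate result. The correlations are descriptions over 8 arrays of 4 groups. All arrays of a genotype share that genotype, so a gene that is lower in KO and varies little otherwise ranks high. None of the other members was near: r with Atp6v1c2 over the 8 arrays ran from -0.290 for Atp6v0a2 to 0.468 for Atp6v1a, and was 0.357 for Atp6v1c1.

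**Figure D4:**
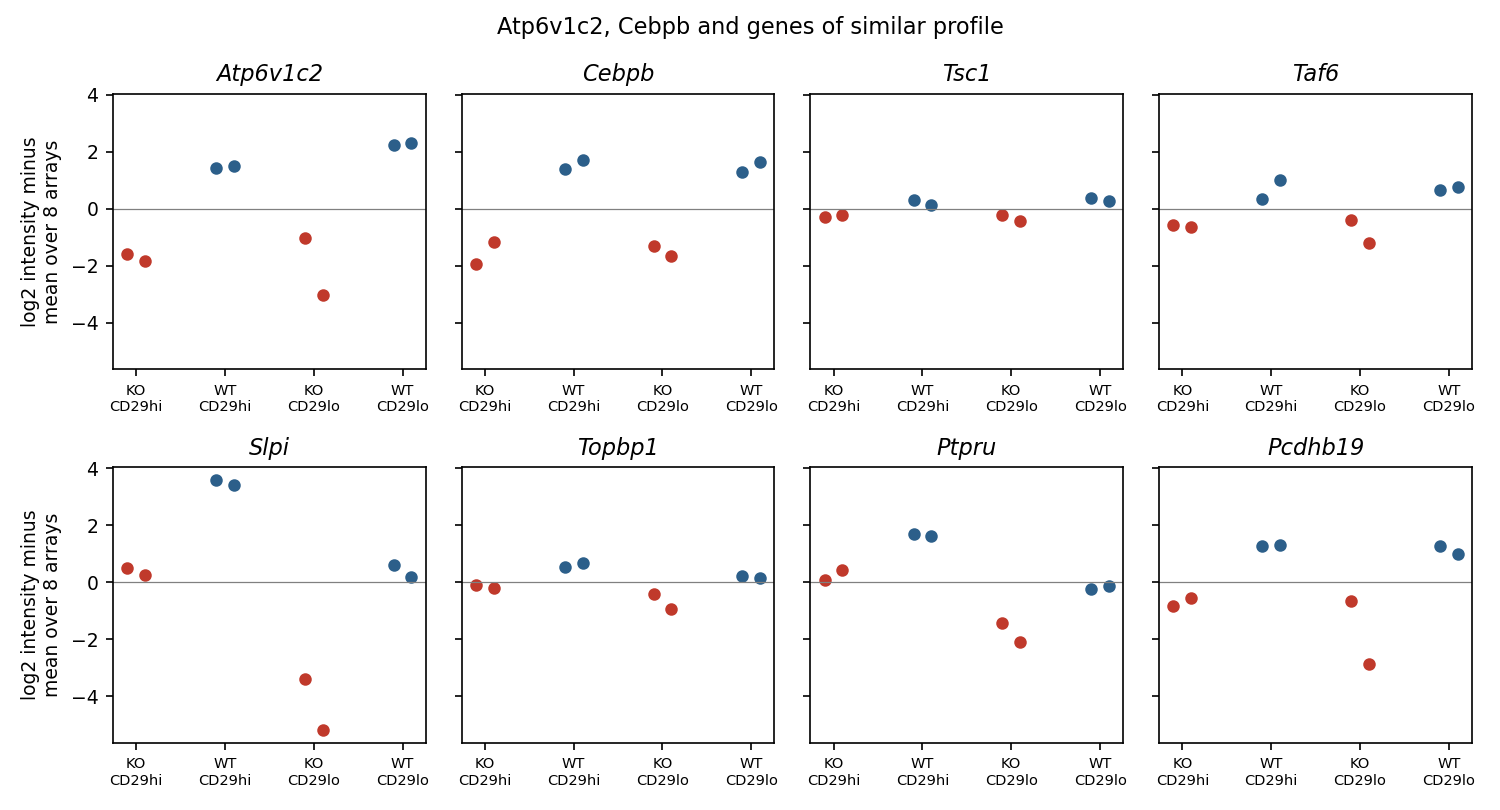
Log2 intensity minus the gene's mean over the 8 arrays (y axis) in the 4 groups (x axis) for Atp6v1c2, Cebpb, 2 genes of most similar profile over the 8 arrays (Tsc1, Taf6) and 4 of most similar profile within gates (Slpi, Topbp1, Ptpru, Pcdhb19), with a point per array (KO red, WT blue). KO arrays lie below the WT arrays of the same gate in every panel, and Slpi and Ptpru also differ between the gates.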

How the data were processed

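Per the labels' protocols, RNA of the sorted cells was isolated with the Arcturus PicoPure kit, amplified with a NuGEN FFPE kit and hybridised as biotin-labelled cRNA to Affymetrix mouse arrays. For every array the authors deposited 1 value per probe set in log2 units, a scale read from the values themselves, and no value is under 0. How they were summarised and scaled is not given in the sources used here. They were used without another normalization, and the number of arrays limits the precision. The p-values measure the spread between these arrays of pooled animals.

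The platform annotation (2016) gives 1 gene to 34958 probe sets, several to 932 and none to 9211. Of the first, 34754 matched a gene ID in a RefSeq table of assembly GRCm38.p6, used for current symbols. The test took the 14598 genes whose leading probe set averaged at least the 25th percentile over probe sets (3.51). The background of an array is the 95th percentile of 27 control probe sets. A fold against a group with no array above it is given as "at least".

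Differences were tested two-sided with limma 3.58.1 in R 4.3.3: lmFit on 4 groups and eBayes with a trend (4 residual and 4.31 prior degrees of freedom), Benjamini-Hochberg over all tested genes, threshold 0.05. Errors are standard errors unless marked SD. The fit was tested on simulated data. Figures used matplotlib 3.10.9 in Python 3.11.15.

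The members, lists and tests were chosen with earlier results of these data known. Named are the members, Cebpb, other subunits called or of smallest p, up to 4 genes of smallest p of each further list, and the 6 genes most correlated with Atp6v1c2 over the arrays and within gates, of which the text gives a selection. Alternatives were a quantile normalization, testing dim genes too, raising the filter to the 50th percentile, the mean of all probe sets, every probe set tested, no trend, only the arrays compared, fixed and random replicate blocks, values raised to 4, and each array left out. Raising values to the background of the array was added after the data had been seen.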

Additional observations from a re-analysis of the deposited data

Results flagged for a closer look

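The deposited values of Atp6v0a4 differed between genotypes with opposite signs in the gates. They were 0.95 and 0.80 in KO against 2.59 and 2.42 in WT in CD29hi cells, and 1.38 and 1.33 in KO against 0.76 and 0.79 in WT in CD29lo cells. The difference in CD29hi minus that in CD29lo was -2.21, and it was not tested. All 8 values lie below the background of their arrays, so no direction can be read from them. With values raised to the background, the difference was 0.01 in CD29hi and 0.37 in CD29lo, and -0.36 between the gates.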

How the results depend on the processing

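Of the members other than Atp6v1c2, 0 passed in each of the 4 genotype comparisons under every alternative run. Between the gates the count was 1 in KO cells under every alternative, and over both genotypes 1 to 2 when 1 array was left out and 1 otherwise. In WT cells it was 0 without a trend and 0 with values raised to 4, and 0 to 1 with 1 array left out. There Atp6v1b1 had adjusted p = 0.0718 and 0.0523, and up to 0.164 with an array left out. With 1 array left out, the genotype difference of Atp6v1c2 ran from -4.23 to -3.23 averaged over the gates. In CD29hi it ran from -3.28 to -3.03. The set was chosen for this difference. Its sign could not turn by leaving 1 array out, because each KO array was below each WT array. Of 57 member values that did not pass, 33 changed sign in at least 1 alternative and 1 passed in one (Atp6v1c1 between the gates). A fit with the replicate number as a block gave member counts of 0, 0, 0, 0, 1, 1 and 1, as without it. The labels speak of paired sets without tying the numbers to them, and deviations of same-numbered arrays correlated between groups from 0.01 to 0.32. Over all genes the averaged genotype comparison gave 10 calls, 2 to 16 under other settings and 3 to 21 with 1 array left out, and the averaged gate comparison 3345, 2622 to 5719 and 1995 to 3077. With the mean of all probe sets the correlation with Atp6v1c2 was -0.115 for Tsc1, and the cause was not tested. Values near the background limit the size of the Atp6v1c2 difference.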
